A study of Mus musculus with 15 samples.

Results

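The cytosolic ribosomal protein genes encode the protein subunits of the ribosome that translates messenger RNA in the cytosol. They were taken by symbol: Rpl or Rps followed by a number and at most an a, l or x, together with Rplp0, Rplp1, Rplp2 and Rpsa. Of 81 matching symbols, 79 had a mean of at least 1 FPKM (fragments scaled by transcript length and library total) in at least 1 of 5 cell populations, out of 23284 entries in the table. Rpl10l was listed at 0 in all 15 libraries and Rpl3l stayed under the minimum, so both were left out. The 79 members comprise 47 of the large and 32 of the small subunit, and all of them were above 0 in every library.

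All populations were CD8 T cells of OT-I mice, whose transgenic T cell receptor recognises the peptide SIINFEKL of ovalbumin. Naive cells (CD44loCD62L+, day 0 in vitro) were compared with cells kept in culture for 14 days with peptide-coated dendritic cells derived from bone marrow, either in IL-2 (sorted CD44+CD62L-) or in a cocktail that combined 2-deoxyglucose and TWS119 with IL-7 and IL-21 (sorted CD44+CD62L-, CD44+CD62L+ and CD44loCD62L+). The naive gate is CD44- in the series design and CD44lo in the sample labels, and the strain background, age and number of mice were not given in the sources used here. Each population has 3 libraries, described as technical replicates of its RNA, so every p-value below measures the spread between libraries and not that between mice or cultures. Culture and dendritic cell contact differ together between naive and cultured cells and cannot be told apart. The sort gate differs from that of naive cells as well in the IL-2 and both cocktail CD44+ populations, but not in cocktail CD44loCD62L+ cells.

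Each ribosome carries a single copy of nearly every subunit protein, and the genes are transcribed at high rates by RNA polymerase II. Many of their messenger RNAs start with a cytosine followed by a run of pyrimidines, the 5′ terminal oligopyrimidine (TOP) motif, through which mTORC1 controls their translation. Resting T cells translate little, and activation by antigen raises protein synthesis and the production of ribosomes. FPKM compare messenger RNA within a library and do not show the number of ribosomes or the amount of translation per cell. In bulk RNA, fewer cells of a type and less RNA per cell cannot be told apart.

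The start sites of 59 members were found in the RefSeq promoter table (GRCm38.p6), with 70 annotated starts, and 20 members had no entry. The windows below run from 15 bases before the annotated start through the first 15 bases of the transcript, with the longest run of C and T in capitals. They are shown for members whose levels carry the results further down and for 3 members with long runs, and were picked after the values and runs had been seen.
Rps6, of the small subunit, chr4:86857353-86857382, minus strand: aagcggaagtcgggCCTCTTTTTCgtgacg
Rpl15, with a long run, chr14:18270972-18271001, minus strand: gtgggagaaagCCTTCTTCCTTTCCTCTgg
Rpl35, with a long run, chr2:39005117-39005146, minus strand: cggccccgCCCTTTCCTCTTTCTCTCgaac
Rps10, with a long run, chr17:27635230-27635259, minus strand: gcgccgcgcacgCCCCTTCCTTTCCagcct
Rps12, the steadiest member, chr10:23787195-23787224, minus strand: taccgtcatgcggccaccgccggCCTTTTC
Rps16, low in IL-2 cells, chr7:28350674-28350703, plus strand: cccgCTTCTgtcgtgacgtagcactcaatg
Rps13, low in IL-2 cells, chr7:116334176-116334205, minus strand: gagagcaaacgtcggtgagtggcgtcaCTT
Rpl24, high in cocktail CD44loCD62L+ cells, chr16:55966260-55966289, plus strand: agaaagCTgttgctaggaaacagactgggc
Rpl28, high in cocktail CD44loCD62L+ cells, chr7:4792950-4792979, plus strand: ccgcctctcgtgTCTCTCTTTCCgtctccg
Rpl41, low in naive cells, chr10:128549154-128549183, minus strand: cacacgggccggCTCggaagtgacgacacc
Rps2, high in IL-2 cells, chr17:24720048-24720077, plus strand: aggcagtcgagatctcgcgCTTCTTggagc
Rps27l, the member with the clearest rise in culture, first of its listed starts, chr9:66946071-66946100, plus strand: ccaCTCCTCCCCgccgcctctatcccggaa

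A run of at least 8 pyrimidines in this window was present at 38.6% of the 70 member starts and at 12% of all 32851 RefSeq starts. A C followed by at least 4 further pyrimidines exactly at the annotated start was present at 18.6% of member starts and 2.51% of all starts. In the 300 bases from 250 before to 50 after the start, on both strands, the letters CCGGAAG were found at 38.6% of member starts against 8.86% of all, TCTCGCGA at 17.1% against 0.995% and CACGTG at 11.4% against 7.15%. The letters TATAAA were found at 8.57% of member starts and 13.6% of all starts. None of these 4 strings contains another. These are matches of letters, chosen after the sequences had been looked at, and are no evidence of a bound factor or of a used start. Printed windows of Rps16, Rps13 and Rpl24 hold runs of 5, 3 and 2. The median log2 fold change of IL-2 over naive cells was -0.44 for the 26 members with a run of at least 8 and -0.38 for the 33 with shorter runs.

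The members lie on 19 chromosomes, their coding sequences are 138 to 1257 bases long, and 30 of them hold 58 annotated small nucleolar RNA genes, which guide the modification of ribosomal RNA, within their spans. Level and coding length were unrelated across the 74 members of 100 FPKM or more (Pearson r = 0.02, Spearman rho = -0.08, across genes, which are not independent replicates). Median fold changes of IL-2 over naive cells were -0.48 for the 30 hosts of small nucleolar RNAs and -0.40 for the 49 other members.

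The family was abundant in all libraries. The median of the members' means over all libraries was 2595 FPKM, and 67 members had a mean of 1000 FPKM or more. Rplp1, an acidic protein of the ribosomal stalk that contacts translation factors, had the highest mean in naive cells at 8153 ± 36.3 FPKM (SD, n = 3). Rps12, of the small subunit, led in IL-2 cells at 6088 ± 58.0 FPKM and in the cocktail CD44+ populations, and Rpl39, at the exit tunnel of the large subunit, led in cocktail CD44loCD62L+ cells at 6392 ± 71.7 FPKM. Spread between libraries was small for most members: 73 had a coefficient of variation under 2% in every population. The other 6, Rps27, Rpl39l, Rpl26, Rpl30, Rpl34 and Rps27l, reached 5% or more in at least 1 population. Of these, all but Rps27l were also the only members with a mean under 100 FPKM.

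**Figure D1:**
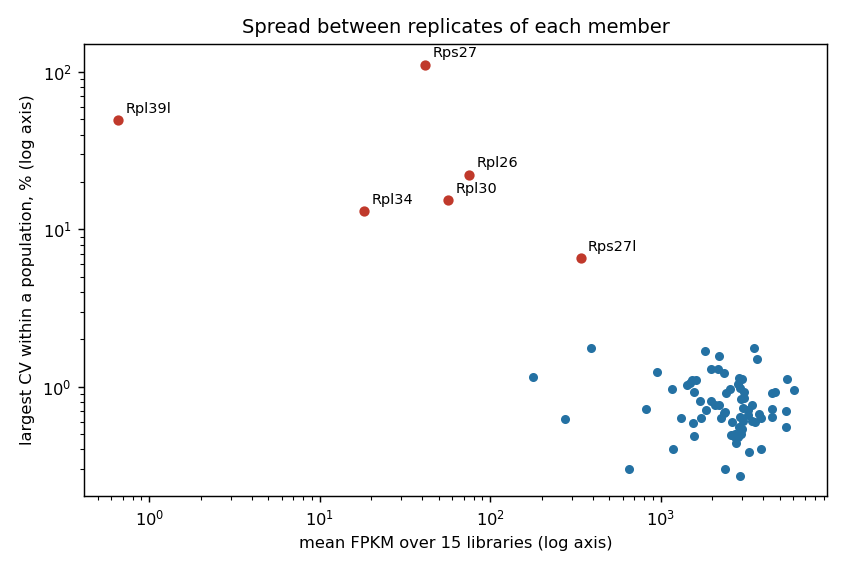
Spread between replicates of the 79 members. Each point is a gene, with its mean FPKM over 15 libraries on the x axis and its largest coefficient of variation within a population of 3 libraries on the y axis (both log axes). The 6 named members in red reach 5% or more, and the 73 in blue stay under 2%.

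Members of the family made up a share of the summed FPKM of each library that was highest in naive cells and lowest in IL-2 cells. In naive libraries the share was 29.6% to 31.6% (30.6% ± 1.02, SD, n = 3). In IL-2 libraries it was 22.7% to 24.0% (23.3% ± 0.636). The 3 cocktail populations lay between, at 26.4% ± 0.127 in CD44+CD62L- cells, 26.8% ± 0.334 in CD44+CD62L+ cells and 29.7% ± 0.588 in CD44loCD62L+ cells. The ranges of naive and cocktail CD44loCD62L+ libraries overlapped, since the latter reached 30.1%.

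Annotated small RNA genes took 11.7% to 17.3% of summed FPKM in naive libraries and 4.89% to 10.7% in cultured ones, and varied between technical replicates. Without them the share was 35.7% ± 0.0341 in naive, 25.4% ± 0.0121 in IL-2, and 28.5% ± 0.0233, 28.6% ± 0.0162 and 31.9% ± 0.0125 in cocktail CD44+CD62L-, CD44+CD62L+ and CD44loCD62L+ cells, and naive and cocktail CD44loCD62L+ libraries no longer overlapped. The median member was at 2894 ± 11 FPKM in naive cells, 2191 ± 16.2 in IL-2 cells, 2360 ± 14.4 and 2424 ± 5.84 in the cocktail CD44+CD62L- and CD44+CD62L+ cells and 2632 ± 4.89 in cocktail CD44loCD62L+ cells.

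**Figure D2:**
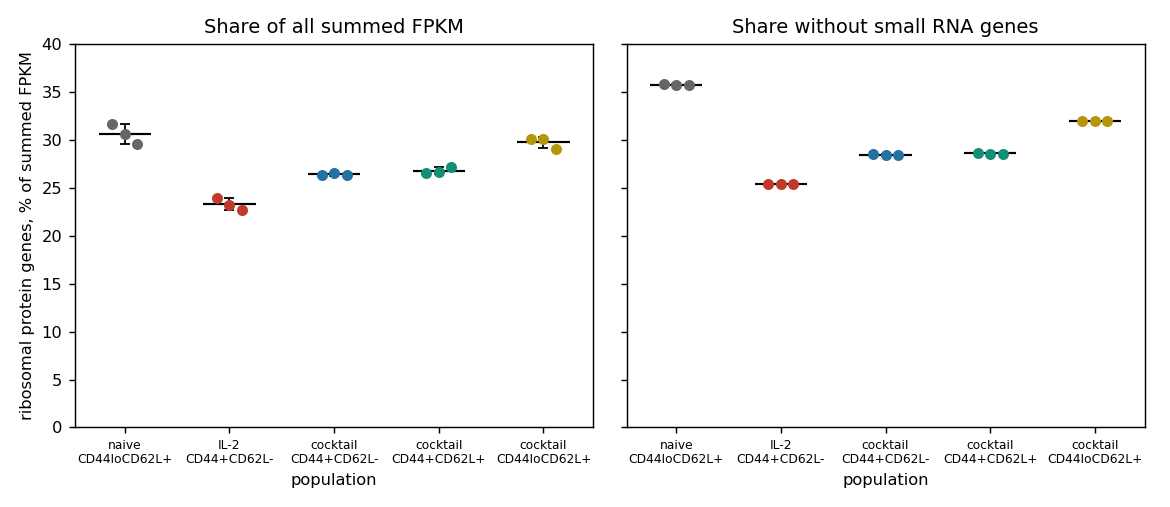
Share of summed FPKM held by the 79 ribosomal protein genes. Points are libraries, lines are means and bars are SD of 3 libraries per population, with all entries in the sum on the left and without small RNA genes on the right (y axis in %). Naive libraries are highest at a mean of 30.6% and 35.7%, and IL-2 libraries lowest at 23.3% and 25.4%.

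Naive cells had the highest mean of the 5 populations for 52 members, cocktail CD44loCD62L+ cells for 21 and IL-2 cells for 6. IL-2 cells had the lowest mean for 54 members, cocktail CD44+CD62L+ cells for 12, naive cells for 6, cocktail CD44+CD62L- cells for 5 and cocktail CD44loCD62L+ cells for 2. For 48 members all 3 naive libraries were above the other 12, as they were for 33.1% of the 11242 genes tested below. For 52 members all 3 IL-2 libraries were below the other 12, as they were for 25.3% of those genes. In 48 members the cocktail CD44loCD62L+ mean fell between the naive mean and the means of both cocktail CD44+ populations. Shares of all genes with this order, or with each population highest or lowest in mean, are not given here. Among the 73 members with a small spread, the highest population mean exceeded the lowest by 1.09-fold to 2.19-fold, with a median of 1.44-fold.

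**Figure D3:**
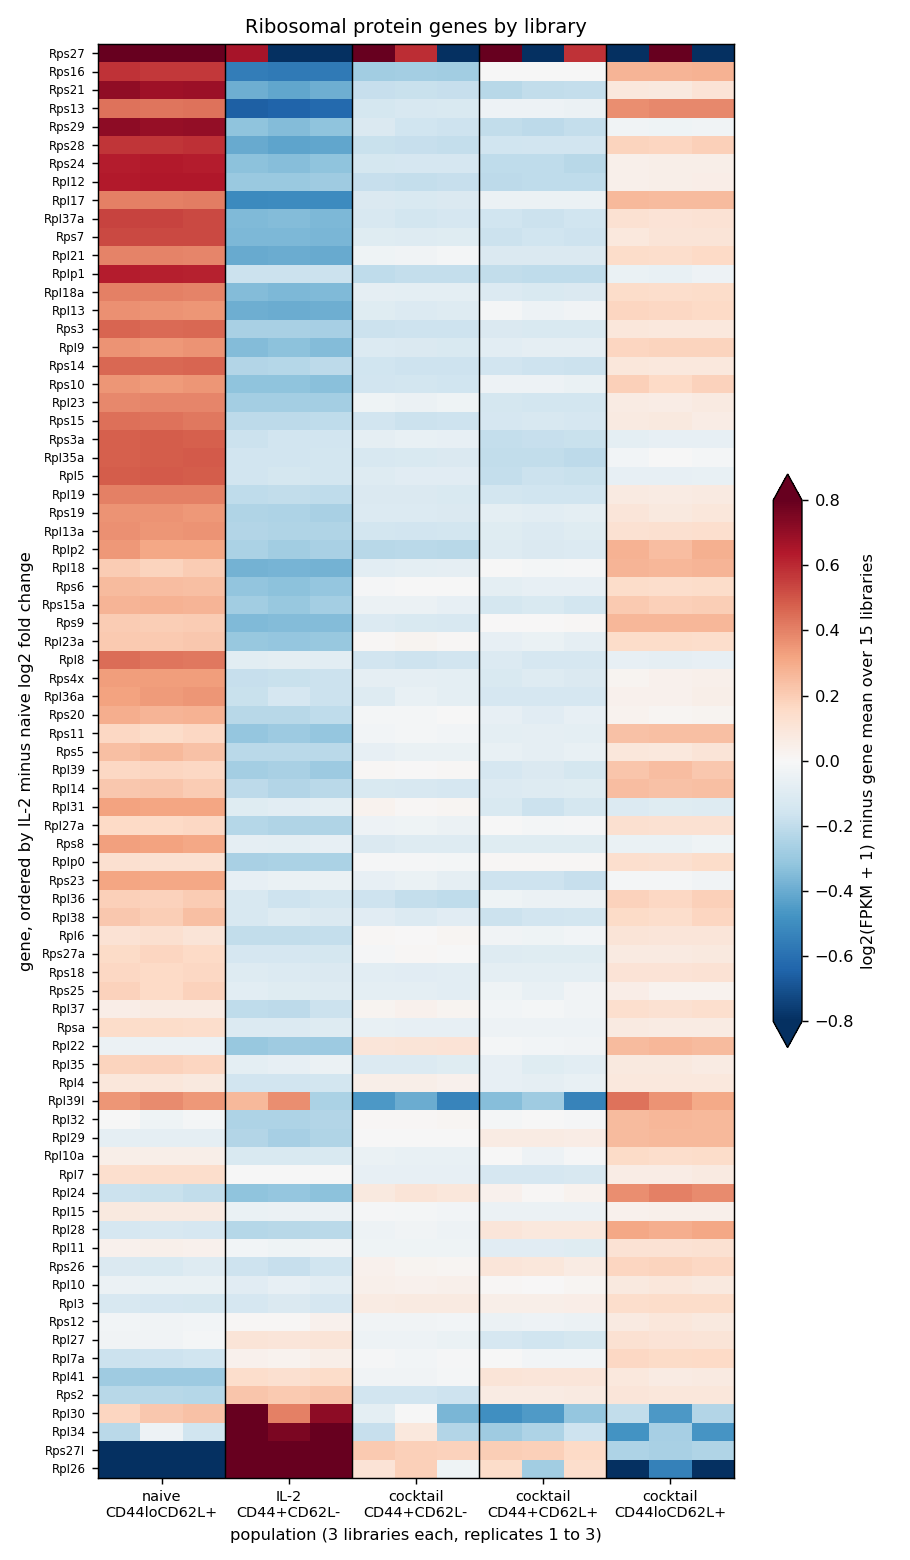
Levels of 78 of the 79 members in 15 libraries. Colour is log2(FPKM + 1) minus the gene's mean over all libraries, limited to 0.8 in either direction, and rows are ordered by the log2 fold change of IL-2 over naive cells. Most rows are red in naive and blue in IL-2 libraries, and the bottom rows (Rpl26, Rps27l, Rpl34) run the other way.

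The labelled cell type was checked by its markers. The 6 CD8 T cell markers (Cd8a, Cd8b1, Cd3e, Cd3d, Cd3g, Cd2) were at 131 FPKM or more in every library. They summed to 3195 to 3206 FPKM in naive, 1853 to 1875 in IL-2 and 2171 to 2445 in cocktail libraries. Cd8b1 was at 1059 FPKM in naive and 263 in IL-2 cells, and Cd3g at 649 and 642. The 3 CD4 T cell markers summed to 0.689 to 0.711 FPKM in naive, 16 to 16.9 in IL-2 and 7.56 to 9.49 in cocktail libraries. Cd4 itself did not exceed 0.333 FPKM in any library and went against its list, from 0.305 in naive to 0.0197 in IL-2 cells. Zbtb7b was at 0.234 FPKM in naive, 15 in IL-2 and 7.73 to 9.34 in the cocktail populations, and Foxp3 reached 1.51 FPKM in IL-2 cells. The 2 NK cell markers summed to 0.157 to 0.447 FPKM in naive, 1.69 to 1.86 in IL-2 and 0.228 to 0.955 in cocktail libraries. All 5 B cell markers reached 1 FPKM in naive cells, where they summed to 39.0 to 40.4 FPKM, against 2.05 to 6.75 FPKM in cultured libraries, in which Ms4a1 and Pax5 were listed at 0. The 8 dendritic cell and macrophage markers summed to 106 to 110 FPKM in naive libraries (6 of 8 at 1 FPKM or more), 6.59 to 7.08 in IL-2 libraries (2 of 8) and 47.6 to 56.8 in cocktail libraries (4 or 5 of 8). The 6 erythroid, platelet and neutrophil markers summed to 24.4 to 28.4 FPKM in naive libraries and 0.0894 to 5.39 in cultured ones. The sums of all these lists, that of CD8 T cells included, therefore move with the comparisons to naive cells and of cocktail with IL-2 cells. They also separated cocktail CD44loCD62L+ from cocktail CD44+CD62L+ libraries without overlap. In CD44loCD62L+ cells the CD8 T cell sum was higher (2439 to 2445 against 2171 to 2182 FPKM), as were those for B and NK cells. The remaining sums were lower there, with dendritic cell and macrophage markers at 47.6 to 48.2 against 53.5 to 56.8 FPKM. Between the cocktail CD44+ gates only the CD8 T cell sums did not overlap. The part of these sums in the results was not tested.

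Members were compared with limma on log2(FPKM + 1) of the 11242 genes with a mean of 1 FPKM in any population. A gene was called at a Benjamini-Hochberg adjusted p under 0.05 and a log2 fold change of at least 0.5. A member was said to depart from the family when it met the same limits after each library had been centred on the median of the family. Fold changes are given ± SE on the log2(FPKM + 1) scale, on which changes of low genes appear smaller than they are.

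Comparing IL-2 cells with naive cells shows how the family stands after activation and growth in IL-2. Ribosomal protein genes were mostly lower in IL-2 cells: 35 of 79 fell and 3 rose, where 28.4% of all genes tested fell and 31.2% rose. The median member was at -0.44 (quartiles -0.65 and -0.23), beside 0.02 over all genes. All 3 IL-2 libraries were below all naive libraries for 68 members, with 44.8% of all genes tested, and above them for 9, with 46.9% of all. Small subunit genes had a median of -0.55 with 17 of 32 fallen, and large subunit genes -0.34 with 18 of 47 fallen; the difference between subunits was not tested. After quantile normalization, which forces the same distribution of values on every library, 22 members fell and 5 rose. The median was then -0.18, beside -0.07 over all genes. Shares of all genes called in that setting are not given here, so these counts cannot be set against 28.4% and 31.2%.

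Rps16, a small subunit protein near the decoding site, fell most among the steady members. Its naive libraries were at 4059, 4025 and 4024 FPKM and its IL-2 libraries at 1849, 1837 and 1838, a log2 fold change of -1.13 ± 0.00426 (limma, adjusted p = 2.7e-22). The cocktail CD44+CD62L- libraries were at 2247, 2248 and 2240 FPKM, the CD44+CD62L+ libraries at 2712, 2711 and 2713 and the CD44loCD62L+ libraries at 3287, 3278 and 3297, so the 5 populations did not overlap. Rps13, another small subunit protein, was at 2089, 2081 and 2089 FPKM in naive and 982, 988 and 1004 in IL-2 libraries (-1.07 ± 0.00725, adjusted p = 6.11e-20). In cocktail CD44loCD62L+ libraries it stood at 2000, 2012 and 2020 FPKM, close to naive cells but below them in all 3.

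Rps21 (4672 ± 52.3 to 2195 ± 19.8 FPKM) and Rps29 (5548 ± 41.5 to 2710 ± 28.7 FPKM), both of the small subunit, fell by 1.09 and 1.03 on the log2 scale. Of the 16 members that departed from the family, 8 did so downward, and they were Rps16, Rps21, Rps13, Rps29, Rps28, Rps24, Rpl12 and Rpl17. Of all genes, 15.8% lay that far below the family median and 46.3% that far above it. Most of these 8 encode small subunit proteins, a split that was not tested.

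The stalk genes differed among themselves. Rplp1 was at 8182, 8165 and 8113 FPKM in naive and 4711, 4699 and 4697 in IL-2 libraries (-0.79 ± 0.00502, adjusted p = 3.14e-20), and its cocktail libraries stayed between 4593 and 5148. Rplp2, its partner, fell from 2709 ± 42.7 to 1805 ± 16.2 FPKM (-0.59 ± 0.0117), and Rplp0, which anchors both, was at 3884 ± 6.82 and 2988 ± 7.85 FPKM (-0.38), under the fold minimum. After quantile normalization neither Rplp1 (-0.27) nor Rplp2 (-0.30) passed the minimum, and Rplp0 was at 0.02.

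Rpl5 and Rpl11 form with 5S ribosomal RNA the particle that binds the p53 regulator Mdm2 when ribosome assembly is disturbed. Rpl5 fell from 1805 ± 4.84 FPKM in naive to 1164 ± 5.69 in IL-2 cells (-0.63 ± 0.00564), whereas Rpl11 was at 3362 ± 4.44 and 3216 ± 12 FPKM (-0.06). Rps6, the small subunit protein phosphorylated downstream of mTORC1, went from 2652 ± 7.88 to 1794 ± 11.4 FPKM (-0.56 ± 0.00508), and passed the minimum no longer after quantile normalization (-0.29). Rpsa, the small subunit protein also known as the laminin receptor, was at 2619 ± 3.46 and 2202 ± 6.62 FPKM (-0.25). Rps27a, made as a fusion with ubiquitin, was at 2647 ± 16.5 and 2151 ± 2.56 FPKM (-0.30).

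Some members held their level. Rps12 ranged only from 5815 to 6390 FPKM over all 15 libraries, and it was chosen here, as was Rpl15, after its values had been seen. Rpl15, of the large subunit, ranged from 631 to 690 FPKM. Rps2, at the entry of messenger RNA into the small subunit, was at 2434, 2426 and 2421 FPKM in naive and 3299, 3279 and 3305 in IL-2 libraries (0.44 ± 0.00435), which is under the fold minimum but 0.84 above the family. Rpl41, the smallest member with 138 coding bases, was at 3647, 3634 and 3633 FPKM in naive and 4884, 4858 and 4921 in IL-2 libraries (0.43 ± 0.00575). Naive libraries were below those of each cultured population for both genes. Rps2, Rpl41, Rpl7a and Rpl27 departed upward from the family, along with Rps27l and the low and variable Rpl26, Rpl30 and Rpl34.

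The 3 members that rose in IL-2 cells were Rps27l, Rpl26 and Rpl34, all from the group with a larger spread. Rps27l (chromosome 9, 66946086 to 66949516 of GRCm38, plus strand) encodes a protein closely similar to Rps27 and is known as a target of p53. Its libraries were at 105, 110 and 96.2 FPKM in naive cells and 701, 707 and 710 in IL-2 cells, 6.82-fold higher in FPKM (2.76 ± 0.0326, adjusted p = 1.9e-17). Cocktail cells were at 324 ± 2.92, 321 ± 4.47 and 238 ± 1.35 FPKM in the CD44+CD62L-, CD44+CD62L+ and CD44loCD62L+ gates. The naive libraries were lowest and the IL-2 libraries highest, and the CD44+ cocktail populations overlapped each other only.

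Rpl26 (20.8, 23.4 and 29.4 FPKM in naive, 222, 185 and 215 in IL-2 libraries) and Rpl34 (14.6, 16.6 and 15.2 against 31.0, 29.6 and 37.5), both of the large subunit, rose by 3.04 ± 0.164 and 1.03 ± 0.0968. Rpl30, also of the large subunit, was at 62.7 ± 1.43 and 86.6 ± 13.3 FPKM. Rps27 was at 57.5, 57.3 and 94.8 FPKM in naive cells and at 45.8, 6.46 and 7.80 in IL-2 cells, and similar gaps separated the technical libraries of each cocktail population. All 3 IL-2 libraries were below all naive libraries, and the log2 fold change was -2.24 ± 1.02 (limma, adjusted p = 0.0507), which was not called. It was called with a pseudocount of 0.1 (-2.35), after quantile normalization (-2.34), with library sums without small RNA genes (-2.28), in a fit of the 6 libraries compared alone (adjusted p = 0.0228) and without IL-2 replicate 1 (-3.09, adjusted p = 0.0142). In cocktail CD44loCD62L+ against naive cells Rps27 was at -1.64 (adjusted p = 0.144) and was called without cocktail CD44loCD62L+ replicate 2 (-2.50, adjusted p = 0.0397). These values lie far below those of the other subunit genes although each encodes a core subunit protein. Ribosomal protein genes have many near-identical processed copies in the genome, and how reads were divided among copies was not given in the sources used here, so the levels of Rpl26, Rpl30, Rpl34 and Rps27 are uncertain. The part of shared reads in them was not tested.

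**Figure D4:**
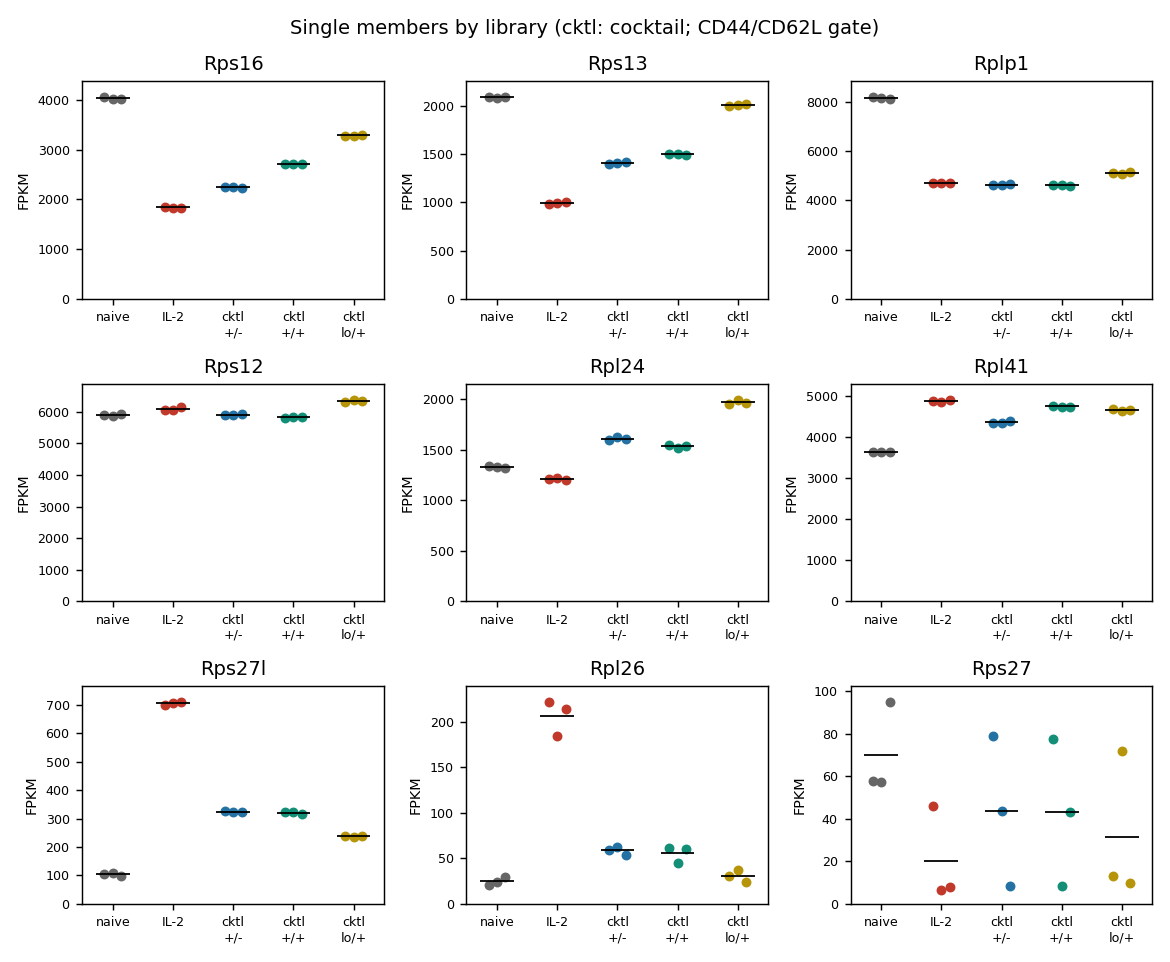
FPKM of 9 members in each library. Points are libraries, black lines are means of 3, axes start at 0, and the populations are naive, IL-2 and the cocktail gates CD44+CD62L- (+/-), CD44+CD62L+ (+/+) and CD44loCD62L+ (lo/+). Rps16 and Rps13 are lowest in IL-2 cells, Rps27l and Rpl26 highest there, and Rps27 varies between 6.46 and 45.8 FPKM among the IL-2 libraries.

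Cocktail and IL-2 cells of the CD44+CD62L- gate share the gate and differ by label in the culture. Their dendritic cell and macrophage markers summed to 52.2 to 55.2 FPKM in cocktail and 6.59 to 7.08 in IL-2 libraries, and the part of this difference in the results was not tested. Most members were slightly higher in the cocktail, but few passed the minimum: 1 rose and 5 fell, where 13.6% of all genes rose and 14.1% fell. The median member was at 0.12, beside -0.01 over all genes. All 3 cocktail libraries were above all IL-2 libraries for 58 members (40.6% of all genes) and below them for 16 (43.9% of all). Rps13 was the member that rose, from 991 ± 11 to 1409 ± 7.50 FPKM (0.51 ± 0.00725, adjusted p = 8.42e-16). After quantile normalization 3 rose and 5 fell, and the shares of all genes called in that setting are not given here.

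The 5 that fell were Rpl26 (-1.80 ± 0.164), Rps27l (-1.12 ± 0.0326), Rpl34 (-1.0 ± 0.0968), Rpl30 (-0.81 ± 0.113) and Rpl39l (-0.59 ± 0.124). All of them belong to the 6 members with a larger spread, and the same 5 departed from the family, where 19.4% of all genes lay that far below its median and 10.6% above. Rpl39l, a paralog of Rpl39 best known from testis, was at 0.915, 1.07 and 0.342 FPKM in IL-2 and 0.162, 0.214 and 0.108 in cocktail libraries. It passed the minimum of 1 FPKM only in naive and cocktail CD44loCD62L+ cells, which are not compared here, so its fall is a description only. Without IL-2 replicate 2 its change was -0.47, with a pseudocount of 5 it was -0.16, and in neither case was it called. Rpl24, a large subunit protein at the bridge between subunits, had the largest rise among members short of the minimum after Rps27 was set aside, from 1208 ± 7.22 to 1607 ± 13.7 FPKM (0.41 ± 0.00941).

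Within the cocktail culture, the CD62L+ and CD62L- gates of CD44+ cells were close to each other. No member was called in either direction, where limma called 0.578% of all genes higher and 0.489% lower in CD62L+ cells, and none departed from the family (0.418% of all genes above and 0.64% below). Without the fold minimum, 29 members were higher and 39 lower at an unadjusted limma p under 0.05, as were 54.5% of all genes tested in either direction, and no other tool was run. The median member was at -0.02. Libraries of the CD62L+ gate were all above those of the CD62L- gate for 29 members (27.7% of all genes) and all below for 39 (28% of all). Rps16 was the highest at 0.27 ± 0.00426, from 2245 ± 4.75 to 2712 ± 1.09 FPKM, followed by Rps2 at 0.23. The lowest were Rpl30 at -0.27 ± 0.113, Rpl31 at -0.16 and Rpl39 at -0.14, from 5493 ± 11.9 to 4990 ± 37.9 FPKM.

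Cocktail CD44loCD62L+ cells had more of most members than cocktail CD44+CD62L+ cells, by small amounts. The median was 0.19, beside 0.00 over all genes, and 73 members lay above 0, as did 49.7% of all genes. All 3 CD44lo libraries were above all CD44+ libraries for 72 members (37.7% of all genes) and below them for 4 (38.4% of all). Only 1 member rose and 1 fell past the minimum, where 3.82% of all genes rose and 7.75% fell. The one that rose was Rpl39l, at 0.227 ± 0.108 and 1.07 ± 0.0960 FPKM in the CD44+CD62L+ and CD44loCD62L+ cells (0.75 ± 0.124), and with a pseudocount of 5 it was not called (0.21). Rpl39l passed the minimum of 1 FPKM only in naive and cocktail CD44loCD62L+ cells, so it was tested because of populations in which it was high, and its rise here is a description only. The one that fell was Rpl26, from 60.8, 45.1 and 60.5 to 31.0, 37.5 and 23.7 FPKM (-0.84 ± 0.164, adjusted p = 0.000452).

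Rps13 (0.42 ± 0.00725), Rplp2 (0.38 ± 0.0117) and Rpl24 (0.36 ± 0.00941) were the highest of the abundant members in this comparison. Rplp2 stood at 2018, 1995 and 2009 FPKM in the CD44+CD62L+ libraries and 2631, 2573 and 2644 in the CD44loCD62L+ libraries, which did not overlap. Rps27l, at 325, 323 and 316 against 239, 237 and 239 FPKM, lay 0.55 below the family and so departed from it, as did Rpl26, while Rpl39l departed upward. Of all genes tested, 11.1% lay that far below the family median and 2.22% that far above.

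Cocktail CD44loCD62L+ and naive cells carry the same gate in the sample labels. Here 9 members fell and 2 rose in the cocktail cells, where 19.7% of all genes fell and 22.8% rose, and the median member was at -0.10 (quartiles -0.35 and 0.07), beside -0.02 over all genes. All cocktail libraries were below all naive libraries for 50 members (45.8% of all genes) and above them for 23 (43.4% of all). After quantile normalization 4 fell and 4 rose, with a median of -0.01 beside -0.09 over all genes. The family thus lay above all genes in that setting, and the shares of all genes called in it are not given here.

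Rps29, from 5595, 5515 and 5534 to 3334, 3329 and 3339 FPKM (-0.73 ± 0.0109, adjusted p = 4.29e-16), and Rplp1, from 8153 ± 36.3 to 5112 ± 36.1 FPKM (-0.67 ± 0.00502), fell most and were the 2 that departed downward from the family, with 14% of all genes that far below it. The others that fell, among them Rps21, Rpl12, Rps24, Rps3a, Rpl5 and Rpl30, were at -0.60 to -0.50. Rplp1 and Rpl5 did not pass the minimum after quantile normalization (-0.28 and -0.43).

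The 2 that rose were Rps27l, from 104 ± 6.81 to 238 ± 1.35 FPKM (1.2 ± 0.0326), and Rpl24. Rpl24 was at 1340, 1331 and 1318 FPKM in naive and 1955, 1995 and 1960 in cocktail CD44loCD62L+ libraries (0.57 ± 0.00941, adjusted p = 1.4e-15), and its cocktail CD44lo libraries were above those of all other populations. After quantile normalization Rpl24 was at 0.47. Rpl28, of the large subunit, went from 2731 ± 5.11 to 3695 ± 22.2 FPKM (0.44 ± 0.00586), under the minimum, and was the third member to depart upward, with 28.4% of all genes that far above the family.

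**Figure D5:**
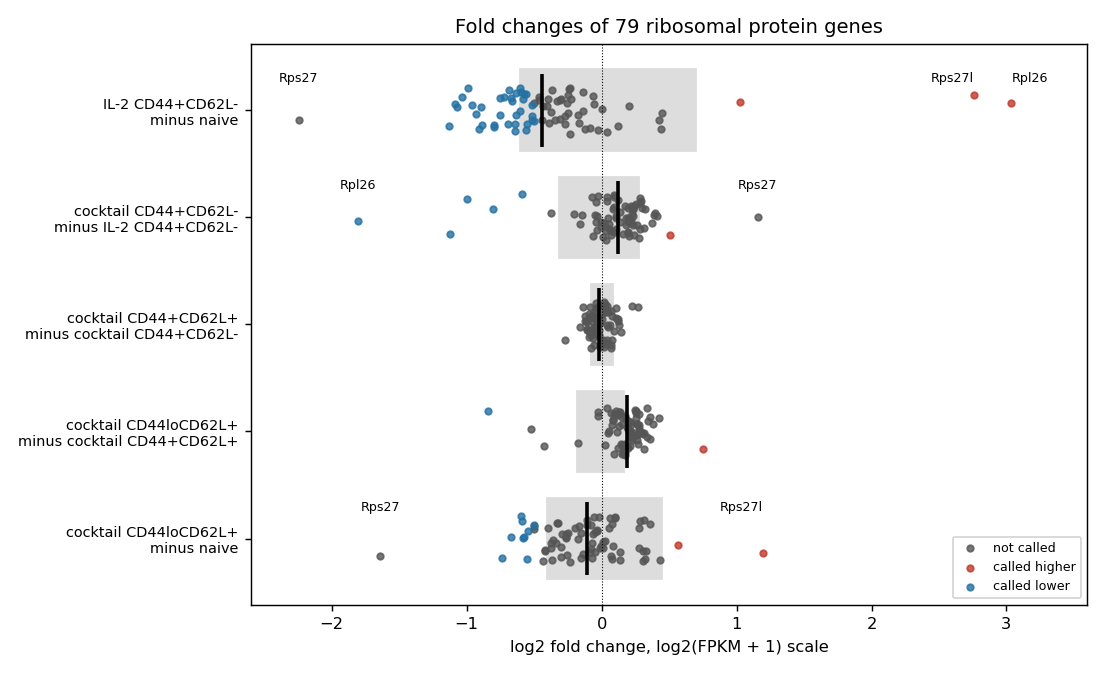
Log2 fold changes of the 79 members in the 5 comparisons (x axis, log2(FPKM + 1) scale). Points are genes, coloured where called, black bars are the medians of the members, and grey boxes span the quartiles of all 11242 genes tested. The median lies at -0.44 for IL-2 minus naive cells, and the 79 genes stay between -0.27 and 0.27 between the cocktail CD44+ gates.

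Paralog pairs were unequal in level. Rpl3 was at 2130 to 2584 FPKM by population and Rpl3l at 0.0406 FPKM or less in every library, and Rpl39 was at 4517 to 6392 FPKM with Rpl39l at 0.161 to 1.07. Rpl22 (221 ± 1.38 FPKM in IL-2 and 262 ± 0.108 in naive cells) was below its paralog Rpl22l1 (406 and 386 FPKM) in these populations. Rpl7l1, a paralog of Rpl7, was at 33.5 FPKM in naive and 45.7 in IL-2 cells and fell to 28.5 in cocktail CD44+CD62L- cells (-0.66), whereas Rpl7 itself was at 2492 to 3005 FPKM by population. Rpl36a (2273 ± 23.7 to 1605 ± 27.1 FPKM, naive to IL-2) was at -0.50, on the threshold, and lost its call without any of 3 single libraries (IL-2 replicates 1 and 3, naive replicate 3). Rpl36a also lost it with median-ratio scaling (-0.4997) and after quantile normalization (-0.37). Its paralog Rpl36al was at 742 and 826 FPKM.

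Other genes of translation were read against all genes tested, of which 31.2% rose and 28.4% fell in IL-2 against naive cells. Among 36 translation initiation factors, 18 rose and 1 fell, with a median of 0.48 beside 0.02 for all genes and -0.44 for the ribosomal protein genes. Eif1ax, a scanning factor, went from 64.7 to 213 FPKM (1.70), and Eif4a2, an RNA helicase, was the one that fell, from 334 to 99.4 FPKM (-1.74). In a list of 10 genes tested that joins elongation with release factors, 4 rose and 0 fell. Those 4 were Eif5a, which helps ribosomes through stalling sequences (366 to 1148 FPKM, 1.65), its paralog Eif5a2 (1.46 to 5.93 FPKM, 1.49), and the release factors Etf1 (40.2 to 86.0 FPKM) and Gspt1 (27.0 to 42.6 FPKM, 0.64). None of the Eef1 and Eef2 genes in the list was called, with Eef2, which moves the ribosome along the messenger RNA, at 1492 and 1693 FPKM (0.18) and Eef1b2, a nucleotide exchange factor, at 819 and 584 (-0.49). Eef1a1 was listed at 0 in all libraries, as were 6039 entries in all, so an entry of 0 need not mean an absent transcript.

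Among factors that build ribosomes, the counts of genes that rose were close to the 31.2% of all genes, while 28.4% of all genes fell. Their medians lay above the 0.02 of all genes, at 0.37 for ribosomal protein chaperones and export factors and 0.25 for RNA polymerase I genes. Of 21 chaperones and export factors of ribosomal proteins 7 rose and 0 fell in IL-2 against naive cells, among them Znhit3 (1.80) and Mrto4 (0.75). Of 17 genes of RNA polymerase I and ribosomal RNA synthesis 6 rose, including nucleolin, Ncl (73.5 to 190 FPKM, 1.36), and nucleophosmin, Npm1 (0.97), and 2 fell, Taf1a (-0.88) and Taf1c (-0.86). In cocktail CD44+CD62L- against IL-2 cells, where 13.6% of all genes rose and 14.1% fell, 7 of 36 initiation factors, 8 of 21 chaperones and export factors and 4 of 17 polymerase I genes fell, and 0 of each rose. In the list of elongation and release factors Eif5a (-0.90), Gspt1 (-0.78) and Etf1 (-0.56) fell and none of the 10 rose. Between the cocktail CD44+ gates none of these 4 lists had a call by limma, where 0.578% of all genes were called higher and 0.489% lower.

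Of 25 transcripts with a TOP motif outside the family, 6 rose and 3 fell in IL-2 against naive cells, where 31.2% of all genes rose and 28.4% fell, with Tpt1, the translationally controlled tumour protein, at -1.41 and the histone chaperone Nap1l1 at 1.33. Fau, which encodes a subunit protein fused to a ubiquitin-like sequence and falls outside the symbol rule, fell by 0.68, and Gnb2l1, the ribosome-bound scaffold also named Rack1, was at -0.32. Among 25 mTORC1 and TOP regulators 7 rose and 7 fell, and of 10 Myc family genes 3 rose and 3 fell, both close to the shares of all genes. Pdcd4, an inhibitor of Eif4a, fell from 188 to 26.3 FPKM (-2.79), and Eif4ebp1, which binds the cap-binding factor Eif4e, went from 7.59 to 25.5 FPKM in IL-2 cells (1.63) and to 62.7 in cocktail CD44loCD62L+ cells. Of the Myc family, Mxd3, a repressor partner of Max, was at 4.85 and Max at -1.16.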

How the data were processed

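RNA-seq of 15 mouse libraries was analysed. The authors deposited FPKM, normalized to transcript length and library total; the submitters' processing notes name TopHat2 2.0.9, Cuffdiff 2.1.1 and mm10. Annotation, settings and use of strand: not given in the sources used here. To look for whole reads behind low values, 8306 ratios were formed, and 42.9% fell within 0.05 of an integer (10% by chance), too few to recover reads, so absolute depth stays unknown. The most frequent ratio put relative depth at 0.983 to 1.25 of IL-2 replicate 1.

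The 11242 genes reaching 1 FPKM as a population mean were put on the log2(FPKM + 1) scale. They were fitted in R 4.3.3 with limma 3.58.1 (lmFit, then eBayes with trend) on 15 libraries, without covariates, and p-values were adjusted by Benjamini-Hochberg within each of 5 comparisons. With 3 libraries a side, an exact permutation test reaches 0.1 at best. The members and lists were chosen with earlier results of these data known, and no set test was run.

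Named genes were, per comparison, the 3 highest and 3 lowest members of at least 5 FPKM, departing members (4 each way beyond 8), the 5 members of widest spread, a fixed set of roles and paralogs, and up to 4 of each other list. Further members named because they were called or departed, Rps12, Rpl15 and Rps10 and Rpl35 among the printed windows, and Gnb2l1, were chosen after their values were seen. Positions are from GENCODE (GRCm38) and start windows from RefSeq (GRCm38.p6). The alternatives changed the pseudocount (0.1, 5), the filter (none, 5 FPKM), the scaling (median ratio, quantile, sums without small RNA genes), the fold minimum (1), the variance trend, the libraries in the fit (the 6 compared, each left out in turn) and the replicate block. The comparison of paralog proteins was not run here. Figures were drawn with matplotlib 3.10.9. Some genes are counted but not reported by name here.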

Additional observations from a re-analysis of the deposited data

How the results depend on the processing

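Family medians kept their sign under every alternative, except in cocktail CD44+CD62L+ against CD44+CD62L- cells. That median was 0.00329 after quantile normalization (-0.02 as reported). In the order used below (cocktail against IL-2 CD44+CD62L- cells; cocktail CD44+CD62L+ against CD44+CD62L-; cocktail CD44loCD62L+ against CD44+CD62L+; the same against naive; IL-2 against naive), leaving out a library in turn gave medians of 0.11 to 0.13, -0.02 throughout, 0.19 throughout, -0.11 to -0.10 and -0.45 to -0.44. Quantile normalization gave medians of 0.10 in the first, 0.10 in the third, -0.00736 in the fourth and -0.18 in the fifth. Medians over all genes were then -0.02, 0.03, -0.09 and -0.07 in the same order, and -0.00536 in the second. In the second and the fourth the family thus lay above all genes, where it lay below them as reported. Members called were 3 higher in the first, 4 higher and 4 lower in the fourth, and 5 higher and 22 lower in the fifth. Shares of all genes called are not given for the alternatives. Dividing by library sums without small RNA genes gave 0.17, 0.16, -0.11 and -0.48 for the first, the third, the fourth and the fifth, and shares of 35.7% in naive, 25.4% in IL-2, 28.5%, 28.6% and 31.9% in the cocktail CD44+CD62L-, CD44+CD62L+ and CD44loCD62L+ cells. A pseudocount of 0.1 gave -0.46 in the fifth. A pseudocount of 5 or a filter of 5 FPKM left 0 higher in the third. A fold minimum of 1 left 0 higher, 3 lower and 3 departing in the first, 0 of each in the third, 1 higher, 0 lower and 1 departing in the fourth, and 4 lower and 3 departing in the fifth.

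Without single libraries, members called higher numbered 1, 0, 1, 2 and 3 to 4, called lower 4 to 5, 0, 1, 9 to 10 and 34 to 36, and departing 5, 0, 3, 5 to 7 and 16 to 17. Shares then ran from 30.1% to 31.1% in naive, 23% to 23.6% in IL-2, 26.3% to 26.5%, 26.6% to 26.9% and 29.6% to 30.1% in the cocktail populations.

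Single members changed sign mostly where their change was near 0. Under quantile normalization the values were, in the first comparison, -0.0297 for Rpsa; in the second, 0.00329 for Rpl10, 0.00979 for Rpl36a, 0 for Rpl39 and 0.0153 for Rps27l; in the third, -0.12 for Rpl10, -0.0465 for Rplp0 and -0.0306 for Rps4x; in the fourth, -0.40 for Rpl39l, 0.0818 for Rpl7, 0.13 for Rplp2, 0.0784 for Rps27a, 0.0525 for Rps6 and 0.10 for Rpsa; in the fifth, 0.33 for Rpl10, 0.34 for Rpl11, 0.22 for Rpl7, 0.0155 for Rplp0, 0.0294 for Rps27a and 0.0818 for Rpsa. Without small RNA genes in the sum, Rpl11 and Rplp1 were at 0.0478 and 0.0301 in the first, Rplp1 at 2.12e-05 in the second and Rpl3 at -0.0307 in the fifth. Without a single library, Rpl26 ran from -0.16 to 0.0517 and Rps27 from -0.91 to 0.86 in the second, Rps27 from -1.41 to 0.13 in the third and Rpl39l from -0.0269 to 0.0397 in the fourth. The cause was not tested. With the replicate number as a block, the fifth median stayed at -0.44 and no family result moved; libraries of the same number did not deviate together (median r = -0.01 over 30 pairs, with 2 above 0.1).

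Unknown depth limits the members under 100 FPKM, technical replicates say nothing of variation between mice or cultures, and low members with copies elsewhere in the genome have uncertain levels.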
